A study of Mus musculus with 8 samples.

Results

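Oxct1, Bdh1, Acat1 and Slc16a1 are the genes with which a heart cell takes up ketone bodies and related small acids and burns the ketone bodies. They were selected by symbol, and all 4 were found among the 21970 protein-coding genes of the deposited table. RNA of whole ventricles from C57BL/6J mice, a common inbred strain, was sequenced after poly(A) selection on postnatal days 3, 6, 12 and 24, called P3, P6, P12 and P24 here, and each stage had 2 libraries. No treatment or mutation is named for any group. The sex of the animals, and whether a library came from 1 animal or from a pool, are not given in the sources used here. Replicates were therefore taken as separate libraries only, and p-values measure the spread between these libraries. At P3 this spread may be technical. At P6, P12 and P24 the paired libraries differ in Y-linked reads, given below, so their spread is not technical alone.

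The liver makes ketone bodies from fatty acids, and the heart is among the organs that burn them. A ketone body enters the cell through a monocarboxylate transporter, of which Slc16a1 encodes the first member, MCT1; lactate and pyruvate use the same route. In the mitochondrion the product of Bdh1 oxidises beta-hydroxybutyrate to acetoacetate. The product of Oxct1, known as SCOT, then moves coenzyme A from succinyl-CoA to acetoacetate, which commits it to oxidation, and the thiolase encoded by Acat1 splits acetoacetyl-CoA into acetyl-CoA. Milk is rich in fat, and suckling rodents are known for high blood ketone bodies until weaning.

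The libraries held between 23375967 and 28745112 reads in protein-coding genes. Replicates lay a median of 0.154, 0.39, 0.146 and 0.118 apart on the log2 scale at P3, P6, P12 and P24, so the P6 pair had the widest spread. P6 replicate 1 held 5722 reads of 4 Y-linked genes, P12 replicate 1 held 7182 and P24 replicate 2 held 5260, whereas no other library, those of P3 included, held more than 4. At P6, P12 and P24 each pair thus joined a library with Y-linked RNA and a library almost without it, and its spread includes that difference. P3 had no library with it, so in a comparison with P3 that difference also enters the change itself. Of the tissue label only heart muscle was checked here, by 8 defining genes of heart muscle cells, all of which were detected. Their detection does not by itself separate ventricle from atrium, whose markers are given below. The summed level of the 8 genes was 10324 to 16087 FPKM (fragments per kilobase of transcript) per library. For any given gene, FPKM and normalized counts stayed in fixed proportion across libraries (relative spread at most 4.85e-14). The FPKM thus carry the scaling of the normalized counts and not one by library size alone.

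Promoters are shown for Oxct1 and Bdh1, the genes that rose most, and for Slc16a1 as the gene with another course. Each runs from 250 bases before to 50 bases after a RefSeq transcript start in the assembly GRCm38.p6, in the direction of the gene, and was searched for AAGGTCA (a core bound by estrogen-related receptors), CACGTG (an E-box), GGGCGG (a GC box) and TATAAA on both strands. Matches are in capitals. RefSeq lists 2 starts for Bdh1, and the counts do not separate them. Positions refer to GRCm38.p6 and not to the assembly of the count table.
Oxct1, chr15:4026178-4026477, plus strand: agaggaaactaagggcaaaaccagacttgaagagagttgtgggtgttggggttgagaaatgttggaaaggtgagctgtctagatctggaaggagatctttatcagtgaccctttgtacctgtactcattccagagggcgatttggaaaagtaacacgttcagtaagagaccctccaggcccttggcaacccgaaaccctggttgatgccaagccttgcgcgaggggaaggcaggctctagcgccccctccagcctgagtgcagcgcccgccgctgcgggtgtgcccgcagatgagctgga
Bdh1, upstream start, chr16:31422047-31422346, plus strand: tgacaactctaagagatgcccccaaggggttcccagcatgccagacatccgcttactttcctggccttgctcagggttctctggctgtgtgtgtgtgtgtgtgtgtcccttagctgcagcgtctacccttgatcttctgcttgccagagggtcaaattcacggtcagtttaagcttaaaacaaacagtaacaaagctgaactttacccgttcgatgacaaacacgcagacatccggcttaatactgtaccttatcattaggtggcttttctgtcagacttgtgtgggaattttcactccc
Bdh1, downstream start, chr16:31428503-31428802, plus strand: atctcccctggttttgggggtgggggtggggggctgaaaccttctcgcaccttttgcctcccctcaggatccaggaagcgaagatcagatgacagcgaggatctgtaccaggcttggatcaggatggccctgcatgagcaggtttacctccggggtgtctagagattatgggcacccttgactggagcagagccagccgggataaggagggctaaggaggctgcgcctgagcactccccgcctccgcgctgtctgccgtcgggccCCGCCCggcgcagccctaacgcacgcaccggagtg
Slc16a1, chr3:104638414-104638713, plus strand: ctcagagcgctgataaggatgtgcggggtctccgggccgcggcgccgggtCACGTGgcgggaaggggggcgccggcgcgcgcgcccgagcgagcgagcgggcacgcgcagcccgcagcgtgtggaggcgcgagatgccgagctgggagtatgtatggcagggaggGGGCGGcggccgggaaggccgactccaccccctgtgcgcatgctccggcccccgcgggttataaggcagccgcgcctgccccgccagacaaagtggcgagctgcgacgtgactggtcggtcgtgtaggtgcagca

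None of the 4 motifs occurred in the windows of Oxct1 or of the upstream Bdh1 start. The downstream Bdh1 window held GGGCGG on the minus strand, 16 bases after the start. The Slc16a1 window held CACGTG 200 bases before the start and GGGCGG 85 bases before it. Of 32851 promoter windows of the same length, 4.72% held AAGGTCA, 7.15% CACGTG, 35.7% GGGCGG and 13.6% TATAAA. The windows differed in base composition, with a GC content of 55.3% for Oxct1, 48.3% and 63.7% for the upstream and downstream starts of Bdh1 and 73.7% for Slc16a1. A match is a description of the letters only.

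Oxct1 (ENSMUSG00000022186), which encodes the enzyme that commits ketone bodies to oxidation, was higher at each later stage. Its normalized counts were 8394 and 7780 in the P3 libraries, 11436 and 14018 in those of P6, 29336 and 25468 in those of P12 and 44005 and 45109 in those of P24. The pairs did not overlap at any of the 4 stages, and every library of a later stage lay above every library of an earlier one. Stage means were 8087 ± 434, 12727 ± 1826, 27402 ± 2735 and 44557 ± 781 (SD, n = 2 each) from P3 to P24.

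Over the whole span the mean rose to 44557 at P24, against 8087 at P3, which is 5.51-fold. The log2 change was 2.46 ± 0.17 (SE), with limma and Benjamini-Hochberg (BH) adjustment over the 14055 genes tested (adjusted p = 9.29e-06). Of those genes, 98.2% had a smaller log2 change. In bulk tissue, more cells of a type and more RNA per cell cannot be told apart. Oxct1 also rose between P12 and P6 (log2 change 1.11, limma, BH-adjusted p = 0.0176) and between P24 and P12 (0.70, limma, BH-adjusted p = 0.0225), and between P12 and P3 its log2 change was 1.76 (limma, BH-adjusted p = 0.000427). Between P6 and P3 the log2 change of 0.65 was not called by limma (BH-adjusted p = 0.12), whereas DESeq2 called it (BH-adjusted p = 0.00628). A rise at both of the later steps was called for 0.327% of all genes tested. The single steps rested on few libraries, and whether they were called varied with the library left out. So did the number called among all genes in these fits, each of which leaves 1 library in a stage. Leaving out 1 library at a time gave log2 changes of 0.96 to 1.26 between P12 and P6. Between P24 and P12 they were 0.60 to 0.81, and between P24 and P3 2.41 to 2.52.

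Bdh1 (ENSMUSG00000046598), the dehydrogenase of beta-hydroxybutyrate, was scarce through P12 and rose by P24. Its normalized counts were 14.8 and 10.9 in the P3 libraries, 12.2 and 23.2 in those of P6, 19.0 and 27.9 in those of P12 and 96.2 and 75.0 in those of P24. These values rest on 14 and 10 reads at P3 and 71 and 61 reads at P24, so counting error is large at the early stages. The P24 libraries stood apart from all others, and the P3, P6 and P12 libraries overlapped, except that both P12 libraries lay above both P3 libraries.

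Mean Bdh1 reached 85.6 ± 15.0 at P24, against 12.8 ± 2.72 at P3 (SD, n = 2 each). The log2 change was 2.65 ± 0.39 (SE, limma, BH-adjusted p = 0.000828), larger than that of 98.5% of the genes tested. Most of it lay between P24 and P12, where the mean of 85.6 stood against 23.5 (log2 change 1.84, limma, BH-adjusted p = 0.0145). The earlier steps were 0.38 between P6 and P3 (limma, BH-adjusted p = 0.683) and 0.43 between P12 and P6 (limma, BH-adjusted p = 0.565), each with a 95% interval that reached from below 0 to above 1 (-0.50 to 1.26 and -0.45 to 1.31). Leaving out 1 library at a time gave log2 changes of 1.57 to 2.11 between P24 and P12 and 2.45 to 2.85 between P24 and P3. Whether the change between P24 and P12 was called varied with the library left out.

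Acat1 (ENSMUSG00000032047), the mitochondrial thiolase, was already abundant at P3 and highest at P12. Its normalized counts were 15821 and 16385 in the P3 libraries, 16016 and 28742 in those of P6, 28027 and 27843 in those of P12 and 22472 and 23095 in those of P24. The P3, P12 and P24 pairs were tight and did not overlap, while the P6 libraries lay one beside the P3 values and the other above the P12 values.

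At P12 the mean was 27935 ± 130, against 16103 ± 399 at P3 (SD, n = 2 each), higher by 0.79 ± 0.25 (SE) in log2 units (limma, BH-adjusted p = 0.0459). That call was lost with quantile normalization, with scaling by library size alone and with no filter (limma, BH-adjusted p = 0.0598, 0.0542 and 0.067). Whether it was called also varied with the library left out, while the log2 change stayed at 0.77 to 0.82. The number called among all genes varied with that library too. Acat1 stood at 22784 ± 441 at P24, against 16103 ± 399 at P3 (SD, n = 2 each), higher by 0.50 in log2 units, which was not called (limma, BH-adjusted p = 0.144). The change between P24 and P12 was -0.29 (limma, BH-adjusted p = 0.428). The spread of the P6 pair enters each of these tests, because the fit shares 1 estimate of spread over the stages. Without both P6 libraries, the change of 0.50 between P24 and P3 was called (limma, BH-adjusted p = 0.000583), as was that of -0.29 between P24 and P12 (limma, BH-adjusted p = 0.0202). Many more of all genes were then called as well. Of 14055 genes, 7819 were called between P24 and P3, against 5187 in the main fit. Between P24 and P12 the numbers were 6022 and 2297.

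The P6 libraries differed in Acat1 by 0.84 on the log2 scale, and 13.8% of the genes tested differed by more. The same libraries differed by gene length: relative to each gene's mean, the shortest 10% of genes lay at -0.26 in P6 replicate 1 and 0.32 in P6 replicate 2, and the longest 10% at 0.26 and -0.22. With the trend of each library with gene length removed, Acat1 still differed by 0.78. The trend also differed by stage, with the shortest 10% of genes at 0.16 and 0.28 in both libraries of P12, against -0.18 and -0.15 in those of P3, and the longest 10% at -0.17 and -0.30 in those of P12, against 0.19 and 0.096 in those of P3. With the trend removed, the change of Acat1 between P12 and P3 was 0.78 (limma, BH-adjusted p = 0.0284) and that of Oxct1 1.73 (limma, BH-adjusted p = 0.000121). The summed level of the 8 heart muscle genes was 10324 FPKM in P6 replicate 1 and 13785 FPKM in P6 replicate 2. Its part in the Acat1 difference was not tested.

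Slc16a1 (ENSMUSG00000032902), which encodes the transporter MCT1, was lowest at P6 and P12 and highest at P24. Its normalized counts were 6381 and 5638 in the P3 libraries, 5608 and 4373 in those of P6, 5675 and 4277 in those of P12 and 8222 and 8327 in those of P24. Both P24 libraries lay above the other 6, the P6 and P12 pairs covered nearly the same range, and 1 of the P12 libraries lay within the range of P3.

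Mean Slc16a1 was 8275 ± 73.9 at P24, against 4976 ± 989 at P12 (SD, n = 2 each). The log2 change was 0.75 ± 0.18 (SE, limma, BH-adjusted p = 0.0279), and between P24 and P6 it was 0.74 (limma, BH-adjusted p = 0.0179). Scaled by library size alone, neither was called (log2 change 0.54 and 0.48, limma, BH-adjusted p = 0.0911 and 0.0974). The median log2 change of all genes was then -0.176 and -0.26, against 0.0275 and -0.00511 in the main fit. Between P24 and P3 the log2 change of 0.46 was not called (limma, BH-adjusted p = 0.0797), with a 95% interval of 0.045 to 0.88. Without both P6 libraries that change was called (limma, BH-adjusted p = 0.00786), where 7819 of all 14055 genes were called, against 5187 in the main fit. The lower values at P6 and P12 were not called against P3, at -0.28 each (limma, BH-adjusted p = 0.529 and 0.276). Leaving out 1 library at a time gave log2 changes of 0.54 to 0.95 between P24 and P12 and 0.56 to 0.92 between P24 and P6. Whether these were called varied with the library left out.

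**Figure D1:**
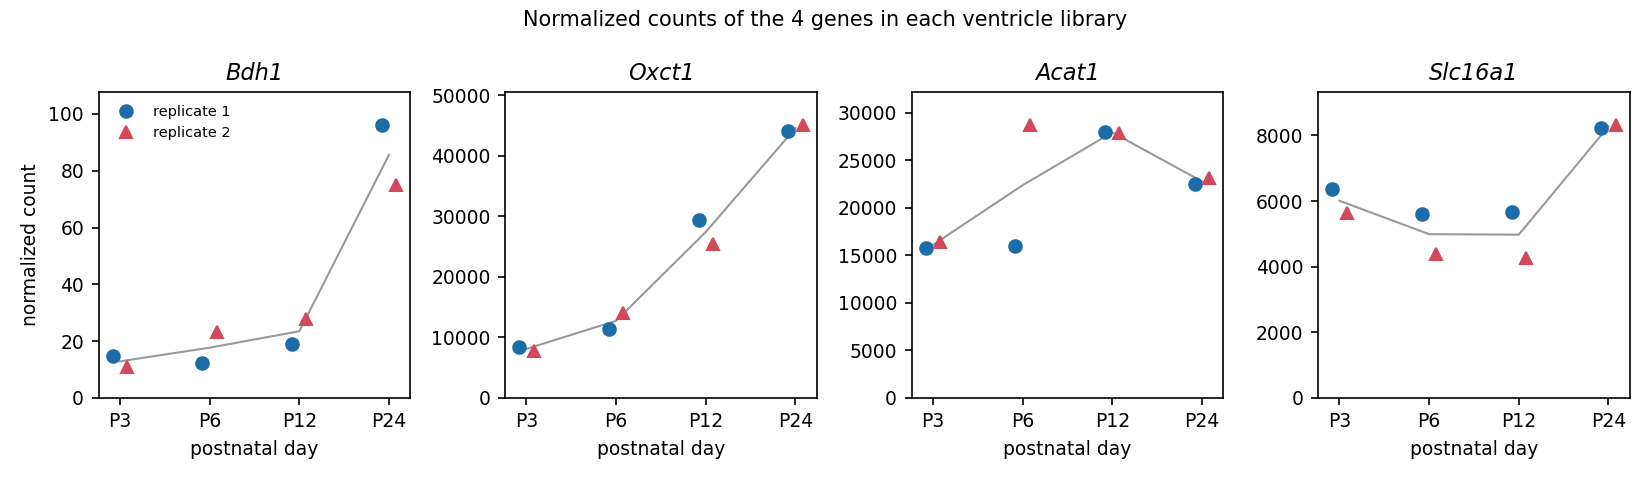
Normalized count (vertical axis, each from 0 with its own scale) of Bdh1, Oxct1, Acat1 and Slc16a1 at postnatal days 3, 6, 12 and 24; circles are replicate 1, triangles replicate 2 and the grey line joins stage means of 2 libraries. Oxct1 is higher at every later stage and reaches 44005 and 45109 at P24, Bdh1 stays at or below 27.9 until P12, Acat1 is split at P6 (16016 and 28742), and Slc16a1 is highest at P24.

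Set side by side, 2 of the 4 genes rose between P24 and P3, Oxct1 and Bdh1, where a rise was called for 18.7% of all genes tested. The median log2 change of the 4 was 1.48, against -0.02 over all genes, but no gene lay near that median. Bdh1 and Oxct1 changed by 2.65 and 2.46, and Acat1 and Slc16a1, which were not called, by 0.50 and 0.46. Between P6 and P3 limma called 0 of the 4, where 0.840% of all genes were called in either direction. Oxct1 had an unadjusted limma p of 0.00366. It was also the 1 gene of the 4 called by DESeq2, which called 515 of all 14055 genes, against 118 with limma. With edgeR 0 of the 4 were called, where 100 of all genes were called with TMM and 115 with the deposited scaling. Between P12 and P6 a rise was called for 1 of 4, Oxct1, against 0.996% of all genes. Between P24 and P12 it was called for 3 of 4, all but Acat1, against 8.20% of all genes. Between P12 and P3 it was called for Oxct1 and Acat1, against 11.4% of all genes, and with a term for Y-linked reads also for Bdh1 (log2 change 1.07, adjusted p = 0.0465, against 0.81 and 0.15 without the term). It was called between P24 and P6 for 3 of 4, all but Acat1, against 13.0%. A moderated F test over the 4 stages called Oxct1, Bdh1 and Slc16a1 (limma, BH-adjusted p = 3.89e-05, 0.00332 and 0.0326) and did not call Acat1 (adjusted p = 0.121), where 34.9% of all genes were called. These comparisons share libraries, so they are not independent of each other.

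**Figure D2:**
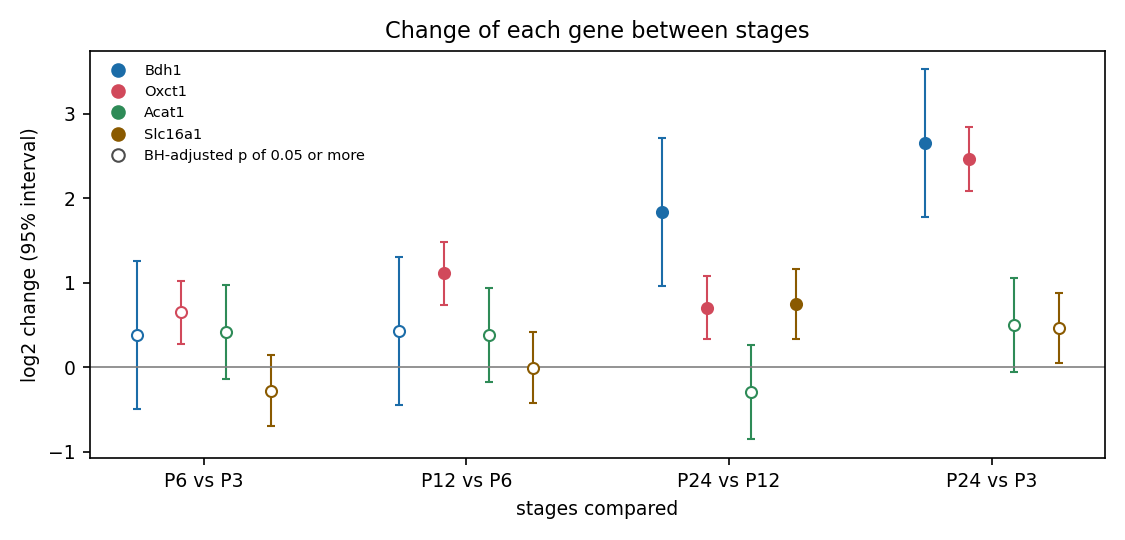
Log2 change of Bdh1, Oxct1, Acat1 and Slc16a1 (vertical axis, with 95% intervals from limma) between successive stages and between P24 and P3 (horizontal axis); filled points had a BH-adjusted p below 0.05 over all genes tested and open points did not. Oxct1 is filled at 3 of the 4 comparisons, and the largest change of Bdh1 between neighbouring stages, 1.84, lies between P24 and P12.

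Levels between genes were compared per length, as FPKM. Oxct1 had 77.9 ± 4.18, 123 ± 17.6, 264 ± 26.4 and 429 ± 7.52 FPKM at P3, P6, P12 and P24 (SD, n = 2 each), and Acat1 had 153 ± 3.79, 212 ± 85.4, 265 ± 1.24 and 216 ± 4.18 FPKM. The ratio of Oxct1 to Acat1 was 0.539 and 0.482 in the P3 libraries, 0.725 and 0.495 in those of P6, 1.06 and 0.929 in those of P12 and 1.99 and 1.98 in those of P24. Thus Acat1 was the more abundant of the pair at P3 and Oxct1 at P24. By mean FPKM, Oxct1 ranked 467 at P3 among the genes of the table, 333 at P6, 170 at P12 and 98 at P24, while Acat1 held ranks of 223, 191, 166 and 193. Bdh1 stayed far below both, at 0.118 ± 0.025 FPKM at P3 and 0.785 ± 0.137 FPKM at P24 (SD, n = 2 each), and Oxct1 exceeded it 481-fold to 1625-fold in single libraries. Slc16a1 had 48.4 ± 4.23, 40.2 ± 7.03, 40.1 ± 7.97 and 66.7 ± 0.595 FPKM (SD, n = 2 each) from P3 to P24.

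Whether the genes moved by unequal amounts was tested on their log2 ratios over the 4 stages, with an exact permutation test for each of the 6 pairs, in which the smallest possible p is 0.00952. The log2 ratio of Oxct1 to Acat1 was higher by 1.96 at P24 than at P3 (exact permutation p = 0.019, BH-adjusted over 6 pairs 0.0858). The ratio of Oxct1 to Slc16a1 was higher by 2.0 (exact permutation p = 0.0286, BH-adjusted over 6 pairs 0.0858). After adjustment a lone pair cannot go below 0.0571. No pair passed; the other 4 had exact permutation p-values between 0.105 and 0.257.

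For each gene the 3 genes with the nearest course were taken, by the root mean square difference between log2 values over the 8 libraries, each centred on its own mean, among genes with a mean of at least 100 at 1 or more stages. The measure runs over single libraries, so it also matches differences within a stage, such as the split of Acat1 at P6. Nearest to Oxct1 were Dgat2, which makes triglyceride (0.123), Rasa4, a Ras GTPase-activating protein (0.124), and Cdnf, a neurotrophic factor (0.144). Nearest to Bdh1 were Misp3 (0.183), Kyat3, a kynurenine aminotransferase (0.263), and Nampt, which makes a precursor of NAD (0.293). Nearest to Acat1 were Mrps16, a mitochondrial ribosomal protein (0.0322), Ndufa7, a subunit of complex I (0.0536), and Emc2, of the membrane protein insertion complex (0.0549). Nearest to Slc16a1 were the translation factor Eif5b (0.0677), the RNA-binding protein Hdlbp (0.0701) and the sulfhydryl oxidase Qsox2 (0.0719). Among the 4 genes themselves the smallest difference was that of Oxct1 and Bdh1 (0.505) and the largest that of Acat1 and Bdh1 (0.955).

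Next to Oxct1, Bdh1 and Acat1 stand other enzymes that use ketone bodies or activate acetate and acetoacetate. Of 10 listed genes 8 were tested, and between P24 and P3 4 rose and 1 fell, where 18.7% of all genes rose, with a median log2 change of 0.53 against -0.02 over all genes; Oxct1 and Bdh1 are 2 of the 4. Acss1, the mitochondrial acetyl-CoA synthetase, had normalized counts of 1479 and 1669 in the P3 libraries, 3542 and 3569 in those of P6, 7909 and 5709 in those of P12 and 15737 and 13665 in those of P24. It rose between P24 and P3 by 3.22 ± 0.18 (SE) on the log2 scale (limma, BH-adjusted p = 3.49e-06), and its stages did not overlap. Acss2, the form of cytosol and nucleus, rose by 0.56 (limma, BH-adjusted p = 0.0146), a call lost when scaled by library size alone. With 1 library left out its log2 change was 0.47 to 0.64, and its call varied with the library. Acat2, the cytosolic thiolase, fell to 120 ± 6.39 at P24, against 246 ± 6.94 at P3 (SD, n = 2 each, limma, BH-adjusted p = 0.00118), where 18.2% of all genes fell; the log2 change was -1.03, while that of its mitochondrial relative Acat1 was 0.50 and not called. Aacs, the cytosolic acetoacetyl-CoA synthetase, was not called, at 189 ± 8.93 at P24 against 252 ± 32.6 at P3 (SD, n = 2 each). Bdh2, a cytosolic dehydrogenase, stayed low and was not called (16.9 ± 2.98 at P24 against 15.0 ± 4.19 at P3, SD, n = 2 each). Oxct2a, a testis relative of Oxct1, had 1 read in 1 P24 library, and Oxct2b was listed at 0 in every library.

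**Figure D3:**
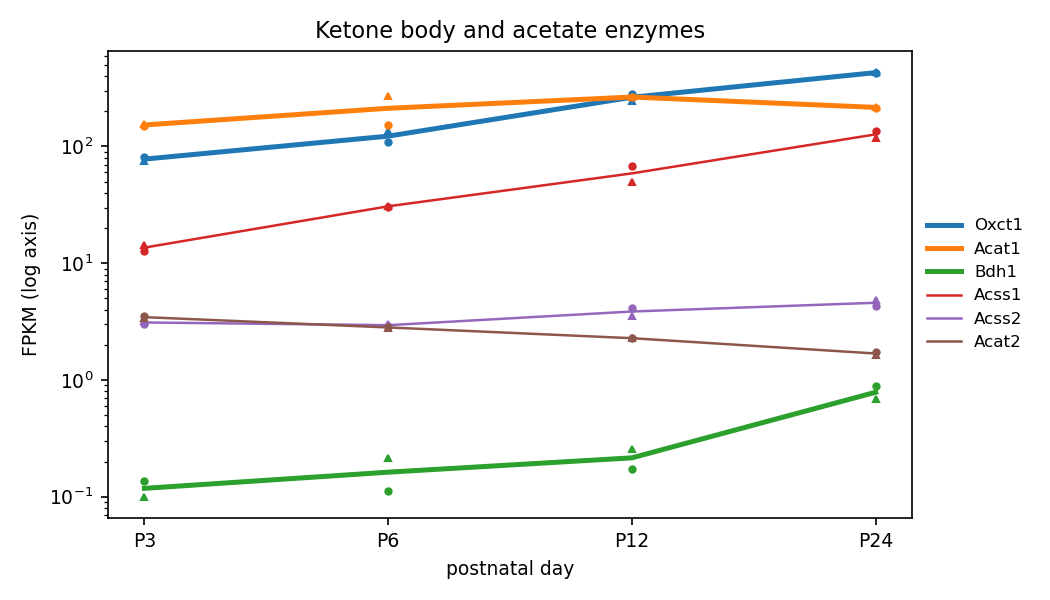
FPKM on a log axis at postnatal days 3, 6, 12 and 24 for Oxct1, Acat1, Bdh1, Acss1, Acss2 and Acat2; lines join stage means, circles are replicate 1 and triangles replicate 2. Oxct1 is highest at P24 (429 FPKM), above Acat1 (216 FPKM) and Acss1 (127 FPKM), and Bdh1 lies below 1 FPKM in every library.

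Acat1 also acts outside ketone use, as the last step of isoleucine breakdown and as 1 of the thiolases. Of the 9 genes of isoleucine breakdown 7 rose between P24 and P3 and none fell, with a median of 1.23, where 18.7% of all genes rose and 18.2% fell; Acat1 and Hsd17b10 were not called. Bckdha, a subunit of the branched-chain ketoacid dehydrogenase, rose by 2.0 (limma, BH-adjusted p = 0.000143) and Acadsb, an acyl-CoA dehydrogenase, by 1.60 (limma, BH-adjusted p = 5.55e-05). Of 7 thiolase genes 6 were tested, of which Scp2 (log2 change 1.29), Hadhb (0.87) and Acaa1a (0.75) rose, Acat2 fell and Acat1 and Acaa2 (0.02) were not called, where 18.7% of all genes rose and 18.2% fell. The call for Hadhb was lost with quantile normalization and that for Acaa1a with library size alone. With 1 library left out their log2 changes were 0.84 to 0.91 and 0.60 to 0.90, and both calls varied with the library. Oxct1 takes its coenzyme A from succinyl-CoA, and all 7 genes that make or use succinyl-CoA and acetyl-CoA in the citric acid cycle rose, against 18.7% of all genes, with a median of 0.71 and the largest changes in Sucla2 (1.30) and Ogdh (0.91). That count was 2 of 7 with quantile normalization and 2 when scaled by library size alone, and it varied with the library left out.

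Slc16a1 was the main transcript of its family. Per length it made up 66.3% and 66.0% of the summed FPKM of the 14 Slc16 genes in the P3 libraries, 64.6% and 66.7% in those of P6, 72.9% and 67.9% in those of P12 and 79.1% and 77.6% in those of P24. The share was thus highest in the P24 libraries, which did not overlap with any other. Of the 13 family members tested, 2 rose and 3 fell between P24 and P3, and 8, Slc16a1 among them, were not called. These counts lie near the 18.7% and 18.2% of all genes that rose and fell. The median log2 change was 0.000876, against -0.02 over all genes.

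Slc16a3, which encodes the lactate exporter MCT4 of glycolytic cells, had normalized counts of 374 and 320 in the P3 libraries, 212 and 211 in those of P6, 144 and 172 in those of P12 and 85.4 and 52.9 in those of P24. It fell by 2.35 ± 0.24 (SE) on the log2 scale between P24 and P3 (limma, BH-adjusted p = 0.000111), and the P24 libraries lay below all others. Slc16a12, a creatine transporter, fell by 1.21 (limma, BH-adjusted p = 0.00143). Slc16a9, a carnitine transporter, rose by 1.05 (limma, BH-adjusted p = 0.00865) and Slc16a10, a transporter of aromatic amino acids, by 0.90 (limma, BH-adjusted p = 0.0066). With 1 library left out these 2 rises were 0.77 to 1.33 and 0.69 to 1.11, and their calls varied with the library. The call of Slc16a10 was lost when scaled by library size alone. Slc16a7, which encodes the high-affinity transporter MCT2, Slc16a6 and Slc16a13 were not called between P24 and P3, at log2 changes of -0.29, 0.42 and -0.26. None of these 7 genes exceeded 3.83 FPKM in any library, against at least 34.5 FPKM for Slc16a1.

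**Figure D4:**
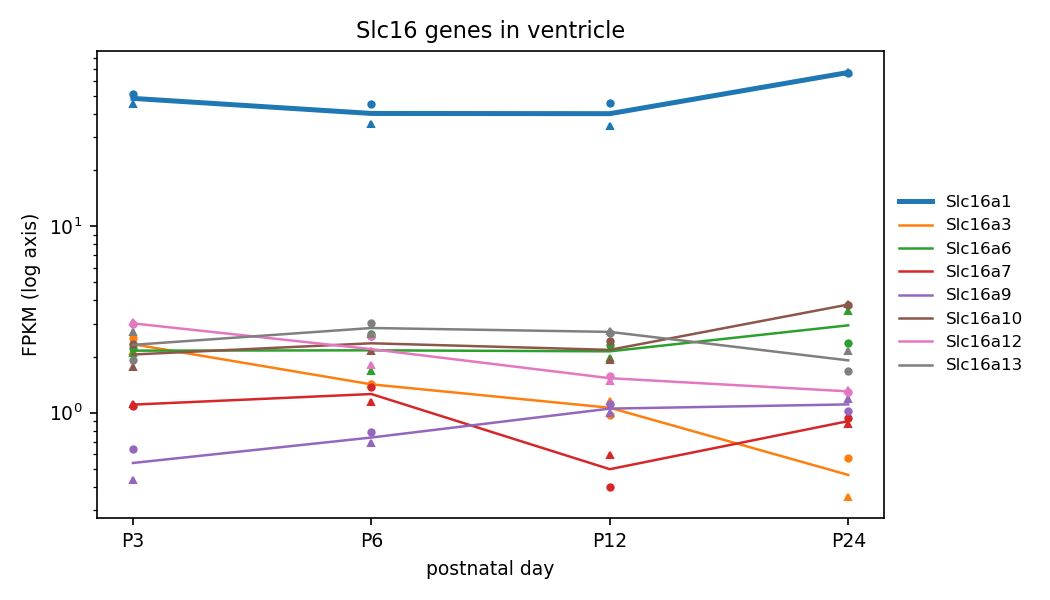
FPKM on a log axis at postnatal days 3, 6, 12 and 24 for Slc16a1 and 7 other Slc16 genes with a mean of at least 100 normalized counts at 1 or more stages; lines join stage means, circles are replicate 1 and triangles replicate 2. Slc16a1 lies between 34.5 and 67.1 FPKM, above the other genes drawn at every stage, while Slc16a3 declines to 0.464 FPKM at P24.

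MCT1 needs a partner protein to reach the cell surface, and for MCT1 that partner is basigin. Its gene Bsg had normalized counts of 19003 and 21231 in the P3 libraries, 22817 and 34654 in those of P6, 32056 and 33640 in those of P12 and 36186 and 37105 in those of P24. It rose between P24 and P3 by 0.87 ± 0.21 (SE) on the log2 scale (limma, BH-adjusted p = 0.0112). With 1 library left out the change was 0.79 to 0.95, and its call varied with the library. The P6 libraries of Bsg were split in the same direction as those of Acat1. The related genes Emb and Nptn were not called (0.54 and -0.13). The sodium-coupled transporters Slc5a8 and Slc5a12 were below the filter, as were the receptors Hcar1, Hcar2 and Ffar2, and Ffar3 was listed at 0 in every library.

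The substrates that share MCT1 with ketone bodies are lactate and pyruvate. Ldhb, the lactate dehydrogenase subunit typical of heart, had 47826 ± 660 at P24 against 25604 ± 3442 at P3 (SD, n = 2 each), higher by 0.91 in log2 units (limma, BH-adjusted p = 0.0204). It was not called with quantile normalization or library size alone. With 1 library left out the change was 0.77 to 1.05, and its call varied with the library. Ldha, the subunit typical of skeletal muscle, was not called (-0.13, limma, BH-adjusted p = 0.615), but was called lower with quantile normalization and with library size alone (log2 change down to -0.55, adjusted p down to 0.0108). Per length, Ldhb made up 79.3% and 78.7% of Ldha plus Ldhb at P24, against 63.3% and 66.0% at P3. Ldhd, the mitochondrial dehydrogenase of D-lactate, had 98.1 and 97.2 in the P3 libraries, 136 and 217 in those of P6, 491 and 401 in those of P12 and 1203 and 1099 in those of P24, an 11.7-fold rise between P24 and P3 (limma, BH-adjusted p = 7.19e-06). Of the carrier that brings pyruvate into mitochondria, the subunits Mpc2 and Mpc1 rose by 1.22 and 2.01 (limma, BH-adjusted p = 0.00471 for Mpc2). Ldhc and Ldhal6b, known from testis, were listed at 0 in every library.

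Transcription factors and coactivators known to act on oxidative or growth genes were the last list. Of its 10 genes 5 rose and 1 fell between P24 and P3, where 18.7% of all genes rose and 18.2% fell. Esrrb, an estrogen-related receptor, rose by 1.79 (limma, BH-adjusted p = 4.3e-05) and Ppard, a fatty acid receptor, by 1.10 (limma, BH-adjusted p = 0.00496), while Myc fell by 1.65 (limma, BH-adjusted p = 0.00137). Their part in the course of Oxct1 was not tested.

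Markers of the cell types that a ventricle holds were summed, and their counts are to be read against the 18.7% of all genes that rose and 18.2% that fell between P24 and P3. The FPKM sum of the 8 heart muscle markers was 14564 to 16087 at P24, against 11412 to 12812 at P3, and 2 of the 8 rose. The 8 endothelial markers summed to 856 to 907 FPKM at P24, against 619 to 668 at P3. Of them 1 rose and 7 were not called, with a median log2 change of 0.045, so the higher sum does not stand for the 8 as a set. The 7 fibroblast markers summed to 324 FPKM at P24, against 559 to 869 at P3, with 4 that fell and 1 that rose. The 7 macrophage markers summed to 281 to 299 FPKM at P24, against 73.5 to 87.4 at P3, with 6 risers. The 7 erythroid markers summed to 1117 to 1382 FPKM at P24, against 661 to 1837 at P3, so these groups overlapped. The 5 atrial markers summed to 115 to 118 FPKM at P24, against 154 to 418 at P3. Between these stages they summed to 91.7 to 159 FPKM at P6 and 28.4 to 62.0 at P12, so they were lowest at P12. The 6 smooth muscle and pericyte markers summed to 400 to 406 FPKM at P24, against 484 to 602 at P3. Of them 3 fell and 1 rose. No marker of these lists was at 0 in all libraries. Their part in the courses of Oxct1, Bdh1, Acat1 and Slc16a1 was not tested.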

How the data were processed

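Poly(A) RNA of whole mouse ventricle was sequenced at 4 stages with 2 libraries each; stage and replicate number come from the titles. Per the file headers, the authors deposited a normalized count (a signal per gene) and FPKM for 21970 genes. Tools named in the submitters' processing notes, without roles, are STAR 2.7.3a, Trim Galore 0.6.4, DESeq2 1.32.0 and HTSeq 0.11.2, and the build is GRCm39. Neither an annotation release nor a strand setting is given in the sources used here; values of genes with overlapping neighbours or near-identical copies are uncertain. The normalized counts were whole multiples of 1 read in 100% of values (tolerance 0.001), which gave the reads per library. In the library with fewest reads, 0 reads leave room for 1.28e-05% of reads (3 reads, counting error only).

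The main test was limma 3.58.1 (R 4.3.3), run on the log2 of the normalized count plus 1, which understates the change of low genes, with a trended variance, stage as a factor and all 8 libraries, over 14055 genes with a value of at least 10 in at least 2 libraries. There were 4 residual and 4.83 prior degrees of freedom. A gene rose or fell where its BH-adjusted p over all genes tested was below 0.05; intervals are 95%. Ratios used an exact permutation test of F over 105 arrangements. Alternatives included a term for Y-linked reads, removal of the trend with gene length, and edgeR 4.0.16 and DESeq2 1.42.0 on the recovered reads.

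The genes, lists and tests were chosen with earlier results of these data known. Named by rule were all 4 genes, the 2 largest rises and falls in each related list, every ketone enzyme, transporter partner and lactate gene with a mean of at least 10 and every Slc16 gene with a mean of at least 100 at a stage, and the 3 nearest courses; others were named to complete a small count. Promoters are RefSeq's (GRCm38.p6); Oxct1, Bdh1 and Slc16a1 matched, while Acat1 is described without one. Some genes that the rule would name are not reported here.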

Additional observations from a re-analysis of the deposited data

How the results depend on the processing

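Oxct1 and Bdh1 rose between P24 and P3 under all 21 and all 20 alternatives that gave a value, with log2 changes of at least 2.11 and 2.31; with the stricter filter Bdh1 was not tested, which left 1 of the 4 genes called. Quantile normalization, scaling by library size alone and no filter each left 1 called between P12 and P3. DESeq2 called 1 between P6 and P3, where it called 515 of all 14055 genes, against 118 in the main fit. Scaling by library size alone moved the median log2 change of all genes between P24 and P3 to -0.364, against -0.0168 in the main fit. Of its calls 23.2% were rises, against 50.6%. The stage test of Slc16a1 gave an adjusted p of 0.0504 with quantile normalization and 0.11 with library size alone, and that of Acat1 0.0375 with DESeq2 and 5.21e-05 without both P6 libraries. Without both P6 libraries 4 of 4 genes were called between P24 and P3, Acat1 at 0.50 and Slc16a1 at 0.46. That setting called 7819 of all 14055 genes, against 5187 in the main fit. The Slc16a1 change was also called with the length trend removed (0.47), where 6070 of all genes were called.

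Deviations of same-numbered libraries correlated at 0.143 to 0.324 among P3, P6 and P12, and at -0.139 to 0.0336 between P24 and the others. Since not every correlation exceeded 0.1 and nothing in the labels ties the numbers together, they were not taken as pairs. With the replicate block, 3 genes were called between P24 and P3 instead of 2, the added one being Slc16a1 (0.46), and the number called did not move in the other 5 comparisons.

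Changes near 0 turned their sign. Slc16a1 between P12 and P6 was 0.0032 with quantile normalization, 0.027 with edgeR and TMM, 0.013 with DESeq2 and 0.019 with the length trend removed. Acat1 between P24 and P6 was -0.12 with quantile normalization and -0.17 with library size alone, and the ratio of Bdh1 to Oxct1 between P24 and P3 was -0.12 with a pseudocount of 5. The causes were not tested.

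Leaving out 1 library at a time leaves 1 library in a stage. How many of the 4 genes limma called varied with the library left out, and so did the number called among all genes. Acat1 ranged from 0.48 to 0.53 and Slc16a1 from 0.37 to 0.55 between P24 and P3. Between P6 and P3, Bdh1 ranged from -0.059 to 0.82 and Acat1 from -0.0076 to 0.84. Between P12 and P6, Bdh1 ranged from -0.0089 to 0.87, Acat1 from -0.041 to 0.80 and Slc16a1 from -0.21 to 0.20. Acat1 between P24 and P6 ranged from -0.34 to 0.51. The stage test gave adjusted p-values of 5.74e-05 to 0.346 for Acat1 and 0.000593 to 0.188 for Slc16a1. With 14 and 10 reads of Bdh1 at P3, depth limits its early steps.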
